A study of Mus musculus with 89 samples.

Results

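Genes of protein folding and stress in the endoplasmic reticulum were followed through the epithelium of the mouse jejunum: Ern2, Xbp1, Hspa5, Hsp90b1, Calr, Sdf2l1, Pdia3, Pdia4, Pdia6 and P4hb. They were taken by name and make 10 of the 21817 genes listed for both single cells and clumps. All 10 were found. The material was MARS-seq of jejunal epithelium from C57BL/6 male mice on regular chow, 3 months old by the labels except for 3 plates of 1 mouse at 4 months, with no genetic or drug treatment in any group. Single cells came from 4 numbered mice. Their plates are named for CD24 (in mouse 1, for high CD24) on 7 plates of mice 1 and 2, for Epcam alone or with CD45 or CD54 on others, and for no gate on the rest, and the methods give Epcam+ CD45- sorts, with CD24+ added to enrich enteroendocrine cells and Epcam+ CD24+ without the CD45 gate for tuft cells. Clumps, small groups of neighbouring cells left together by a mild EDTA dissociation, came from a separately numbered set of 5 mice as pairs of 4n DNA content or as larger clumps. MARS-seq counts the 3' end of each captured mRNA once by its unique molecular identifier (UMI), so it does not separate spliced from unspliced Xbp1.

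Proteins that enter the secretory pathway fold in the endoplasmic reticulum, where chaperones hold unfolded chains and protein disulfide isomerases form and rearrange their disulfide bonds. When unfolded chains build up, the sensors of the unfolded protein response are activated. The Ire1 family, which includes the gut epithelial sensor Ern2, splices the mRNA of Xbp1, and the resulting transcription factor raises genes of folding, translocation and degradation. Goblet cells, which load large disulfide-linked mucins into granules, and Paneth and enteroendocrine cells, which secrete antimicrobial proteins and hormones, are known for a well-developed endoplasmic reticulum, whereas villus enterocytes export lipoproteins.

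The chaperone genes of this response are known for a bipartite promoter motif, the endoplasmic reticulum stress element: CCAAT, any 9 bases, then CCACG. Of the 9 members with a promoter in the RefSeq table of GRCm38.p6 (250 bases before to 50 after the start site; Ern2 was the other), 4 held the whole element on either strand, against 39 of all 32851 promoters (0.119%). Those 4 are shown as the members that hold it. All 4 were called lower at the villus tip in all clumps further on, where 30.3% of all genes tested were called lower. So was Pdia3, whose promoter lacked the whole element. Calr was not called in enterocyte cells, nor Hsp90b1 in marker-free clumps, where Pdia6 was not tested. The part of the element in these 4 promoters was not tested. Each is written 5' to 3' on the strand of the gene, with CCAAT and CCACG of the element in capitals (where the element lies on the other strand they read as CGTGG and ATTGG).
Hspa5, chr2:34771840-34772139, plus strand: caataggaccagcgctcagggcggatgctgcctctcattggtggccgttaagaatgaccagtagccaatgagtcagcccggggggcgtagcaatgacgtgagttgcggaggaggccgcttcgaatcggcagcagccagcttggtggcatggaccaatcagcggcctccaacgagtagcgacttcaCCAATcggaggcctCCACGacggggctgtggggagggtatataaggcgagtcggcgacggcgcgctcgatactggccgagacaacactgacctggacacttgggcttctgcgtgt
Hsp90b1, chr10:86705395-86705694, minus strand: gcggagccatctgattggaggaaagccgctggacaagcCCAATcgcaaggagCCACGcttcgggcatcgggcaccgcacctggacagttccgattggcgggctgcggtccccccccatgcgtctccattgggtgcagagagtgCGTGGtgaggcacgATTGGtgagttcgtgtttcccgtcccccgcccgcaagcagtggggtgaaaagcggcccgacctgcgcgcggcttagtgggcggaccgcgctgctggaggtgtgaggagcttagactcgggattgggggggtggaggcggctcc
Calr, chr8:84846882-84847181, minus strand: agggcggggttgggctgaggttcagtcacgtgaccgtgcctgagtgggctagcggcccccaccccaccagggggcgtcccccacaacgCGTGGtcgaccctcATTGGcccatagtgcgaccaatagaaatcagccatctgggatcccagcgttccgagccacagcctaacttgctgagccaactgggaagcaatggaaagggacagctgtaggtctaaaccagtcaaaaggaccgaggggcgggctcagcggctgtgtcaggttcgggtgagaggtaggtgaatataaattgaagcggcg
Pdia6, chr12:17266339-17266638, plus strand: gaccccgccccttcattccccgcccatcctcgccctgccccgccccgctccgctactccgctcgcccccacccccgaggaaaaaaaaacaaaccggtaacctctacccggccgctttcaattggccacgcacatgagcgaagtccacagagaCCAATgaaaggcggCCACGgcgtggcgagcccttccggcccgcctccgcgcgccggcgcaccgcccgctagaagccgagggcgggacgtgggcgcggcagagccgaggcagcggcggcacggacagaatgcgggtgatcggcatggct
In Hspa5 the element lay 65 to 47 bases before the start site, in Calr 162 to 144 and in Pdia6 98 to 80, while Hsp90b1 held it on both strands, 212 to 194 and 107 to 89 bases before. Apart from each other the letters were common: CCAAT stood in 37.4% of all promoters and in 8 of the 9 members, and CCACG in 32.8% and in 7 of the 9. The shorter unfolded protein response element, TGACGTGG, was in 0.676% of all promoters and in 0 of the 9. These are matches of letters, and no binding was measured.

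Wells were filtered for UMIs, genes and mitochondrial share, which kept 5199 of 16850 wells of the cell table and 5883 of 17162 of the clump table. Cells were typed by 10 or more UMIs of a marker list from which every endoplasmic reticulum gene had been removed, with at most 2 UMIs of each secretory list allowed in an enterocyte. This gave 180 goblet, 127 enteroendocrine, 131 tuft and 2176 enterocyte cells. In the goblet cells the defining markers Muc2, Clca1 and Fcgbp were found in 97.2%, 96.1% and 100% of wells, and Atoh1 and Spdef in 27.2% and 19.4%. Such markers type the cells, so these shares are no independent check. UMIs were summed per mouse and group, and levels (CPM) are the UMIs of a gene per 1000000 UMIs of that sum. A 3' count has no length term, so levels of different genes are not compared. The sums held 10323 to 2155688 UMIs in cell types and 25205 to 7246571 UMIs in clump classes. Of the enteroendocrine and tuft cells, 63.0% and 36.6% came from the CD24 plates, against 0.0460% of the enterocytes and none of the goblet cells. Among them 28.2% to 44.1% of wells also held a UMI of a plasma cell list, against 0.495% to 5.31% of the clump classes compared, and results are given without those wells where a call changed.

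Cells are reported on both scales in use, because the choice moves every fold change. Fitted fold changes were scaled by edgeR's TMM factors, which centre most genes, whereas CPM divides by all UMIs. In enterocytes the 20 most abundant genes took 64.7% to 80.7% of UMIs and mitochondrial genes 30.7% to 33.1%, while mitochondrial genes took 10.9% to 20.9% in goblet, enteroendocrine and tuft cells. The median log2 fold change of all 1636 genes tested against enterocytes was -0.04 in goblet, -0.22 in enteroendocrine and -0.06 in tuft cells with TMM, but 0.72, 1.26 and 1.27 per total UMIs. A call named without a scale is on TMM. The 3 cell types share the same enterocyte sums as their reference, so their differences are not independent of each other.

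Pdia6 and Pdia3 were higher in goblet cells, P4hb was lower, and Ern2 was found in goblet cells and in none of the enterocytes. Enteroendocrine cells were also higher than enterocytes in Pdia6 and lower in P4hb, and in tuft cells the only member called was P4hb, which was lower. Of the 7 members tested, 3 were called between goblet cells and enterocytes (27.3% of all genes tested), 2 between enteroendocrine cells and enterocytes (41.5%) and 1 between tuft cells and enterocytes (32.1%), by edgeR's quasi-likelihood test with Benjamini-Hochberg adjustment. Ern2, Sdf2l1 and Pdia4 were too low to pass the filter on counts. Per total UMIs 5, 6 and 3 members were called (24.8%, 52.9% and 44.7% of all genes). In CPM, every goblet mouse lay above every enterocyte mouse in 6 of the 10 members (17.5% of genes tested) and every enteroendocrine mouse in 4 (31.7%). For enteroendocrine and tuft cells the share of members called on TMM was below that of all genes.

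Ern2, the Ire1 paralog of mucous epithelia, had 10.2, 86.6, 77.8 and 0 CPM in the goblet cells of mice 1 to 4. Enteroendocrine cells had 0, 5.44, 28 and 0 CPM, which rests on 2 UMIs. No UMI was found in the 275533 UMIs of tuft cells or in the 6797507 UMIs of enterocytes, which allows up to 10.9 and 0.441 CPM. Mouse 2 and mouse 3 carried nearly all of the 25 goblet UMIs, and goblet mouse 4, whose sum was only 20759 UMIs, had none. Pooled over mice, the goblet level was at least 138-fold higher than the 3-count limit in enterocytes. Without the filter on counts, edgeR called Ern2 higher in goblet cells than in enterocytes (adjusted p = 1.17e-13) and than in enteroendocrine cells (adjusted p = 0.0237), and in enteroendocrine cells over enterocytes on the 2 UMIs (adjusted p = 0.0333), where 7.9%, 2.32% and 15.9% of all genes were called. A UMI of Ern2 was found in 10.6% of goblet cells (median 1622 to 2466 UMIs a cell over mice) and in 0.0692% of lymphocytes (median 727 to 1028 UMIs). Ern2 also stood on the study's goblet marker list, from which it was removed here before cells were typed.

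Xbp1, the transcription factor spliced by the Ire1 family, had 133, 129.9, 234 and 145 CPM in goblet cells and 19.9, 51.2, 47.6 and 40.4 CPM in enterocytes of mice 1 to 4. Every goblet value lay above every enterocyte value. The log2 fold change was 1.29 ± 0.52 (standard error), adjusted p = 0.0653, which missed the threshold, and with the mouse as a block the adjusted p was 0.0157. It was 0.033 in DESeq2 and 0.0278 without the wells that held a plasma cell UMI, which left 3 of the 4 goblet mice. Per total UMIs it was 2.03 (adjusted p = 0.012). Enteroendocrine cells, at 108, 169, 224 and 194 CPM, also did not overlap with enterocytes, with 0.61 ± 0.55 on TMM (adjusted p = 0.363) and 2.11 per total UMIs (adjusted p = 0.0094). Tuft cells ranged from 0 to 282 CPM and overlapped with every other type.

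**Figure D1:**
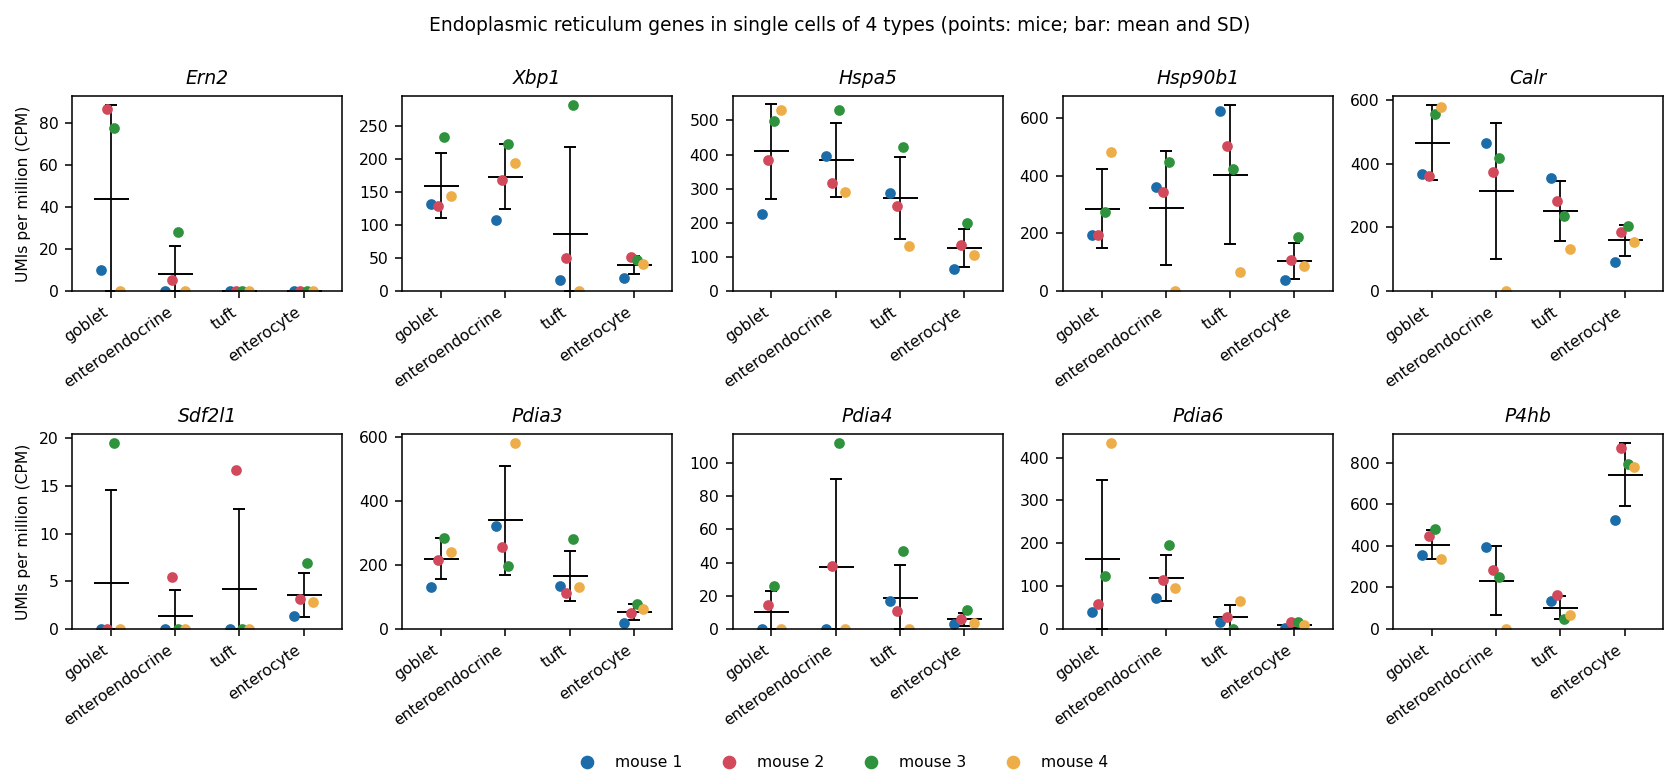
CPM (y axis, from 0) of each member in goblet, enteroendocrine, tuft and enterocyte single cells (x axis), 1 point per mouse, with the mean and SD as a bar that stops at 0. P4hb is highest in enterocytes in all 4 mice, Ern2 is at 0 in tuft cells and enterocytes, and Xbp1, Pdia3 and Pdia6 lie higher in goblet and enteroendocrine cells than in enterocytes.

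Of the chaperones, Hspa5, Calr and Hsp90b1 had higher CPM in every goblet mouse than in any enterocyte mouse, and none of the 3 was called on TMM. Hspa5, which encodes BiP, the Hsp70 of the endoplasmic reticulum, had 225, 383, 499 and 529.9 CPM in goblet cells and 64.5, 134, 199.8 and 107 CPM in enterocytes. Calr, the lectin chaperone of glycoproteins, had 368, 361, 558 and 578 and 91.8, 186, 204 and 155 CPM. Their log2 fold changes were 0.85 ± 0.42 (adjusted p = 0.14) and 0.70 ± 0.49 (adjusted p = 0.312), and per total UMIs 1.67 and 1.53 (adjusted p = 0.0145 and 0.0419). The call for both genes turned on the scale.

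Hsp90b1, the Hsp90 of the endoplasmic reticulum, reached its highest values in tuft cells. Its levels were 624, 501, 423 and 65.6 CPM in tuft cells, 194, 195, 272 and 482 CPM in goblet cells, 359, 343, 448 and 0 CPM in enteroendocrine cells and 38.5, 109, 188 and 86.6 CPM in enterocytes. Tuft mouse 4, with 1 UMI of the gene, lay among the enterocyte values, and the other 3 tuft mice above them. The tuft difference was 0.82 ± 0.52 (standard error), adjusted p = 0.243, and per total UMIs 2.01 (adjusted p = 0.0183). It was also called with 20 marker UMIs to type a cell (adjusted p = 0.0213) and without wells that held a plasma cell UMI (adjusted p = 0.0303), fits that kept 3 and 2 of the 4 tuft mice, the latter without mouse 4. Sdf2l1, a partner of BiP, was near the limit of detection, with 3 UMIs in goblet cells, 1 in enteroendocrine, 3 in tuft and 23 in enterocytes, and no difference was detectable at this depth.

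Among the isomerases, Pdia6, which acts with BiP, had 40.8, 57.7, 123 and 434 CPM in goblet cells, 71.8, 114, 196 and 96.9 CPM in enteroendocrine cells and 1.39, 16.3, 15.7 and 8.54 CPM in enterocytes. Goblet and enteroendocrine values were all above the enterocyte values, and goblet mouse 4 was far above the other goblet mice on 9 UMIs. The log2 fold change against enterocytes was 2.69 ± 0.54 (standard error), adjusted p = 0.000268 in goblet cells and 2.19 ± 0.57 (standard error), adjusted p = 0.00286 in enteroendocrine cells. The call stood on both scales, but without mouse 2, which holds more of the secretory cells than any other mouse, Pdia6 no longer passed the filter on counts and was not tested. Tuft cells, at 16.9, 27.8, 0 and 65.6 CPM, overlapped with enterocytes (adjusted p = 0.934).

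Pdia3, the isomerase that works with calreticulin, had 133, 217, 285 and 241 CPM in goblet cells against 20.4, 51.2, 79.6 and 62.6 CPM in enterocytes. Enteroendocrine cells had 323, 256, 196 and 581 CPM. Neither type overlapped with enterocytes. The goblet difference was 1.33 ± 0.44 (standard error), adjusted p = 0.022, and it was lost without mouse 1 (adjusted p = 0.0549), mouse 2 (0.389) or mouse 3 (0.085). It was also lost without the CD24 plates (0.0715), without the filter on counts (0.368) and without the wells that held a plasma cell UMI (0.172, 3 of the 4 goblet mice). The CD24 plates held none of the goblet cells and 1 of the 2176 enterocytes, and entered this comparison through the other types that share the fit. The enteroendocrine difference was 1.08 ± 0.46 (standard error), adjusted p = 0.0604, with an adjusted p of 0.033 under the mouse block and of 0.000894 per total UMIs. Pdia4, a further isomerase, had 6 UMIs in goblet, 11 in enteroendocrine, 4 in tuft and 38 in enterocyte cells, and was not called in any of these comparisons when the filter was dropped.

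P4hb ran the other way. It encodes the classical protein disulfide isomerase, which is also a subunit of prolyl 4-hydroxylase and of the microsomal triglyceride transfer protein that loads lipoproteins. Enterocytes had 522, 872, 791 and 780.2 CPM in mice 1 to 4, goblet cells 357, 448, 480.0 and 337, enteroendocrine cells 395, 283, 252 and 0 and tuft cells 135, 161, 47 and 65.6. The lowest enterocyte mouse was above the highest goblet, enteroendocrine and tuft mouse. The differences from enterocytes were -1.64 ± 0.56 (standard error), adjusted p = 0.0279, in goblet cells, -3.05 ± 0.61 (standard error), adjusted p = 0.000238, in enteroendocrine cells and -4.02 ± 0.65 (standard error), adjusted p = 1.79e-05, in tuft cells. Per total UMIs the enteroendocrine and tuft differences were still called (-1.54 and -2.67) and the goblet difference was not (-0.86, adjusted p = 0.206). The goblet call was also lost without mouse 2 (adjusted p = 0.0705) or mouse 3 (0.0846), and per total UMIs without Gm42418 and mitochondrial genes (0.052).

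**Figure D2:**
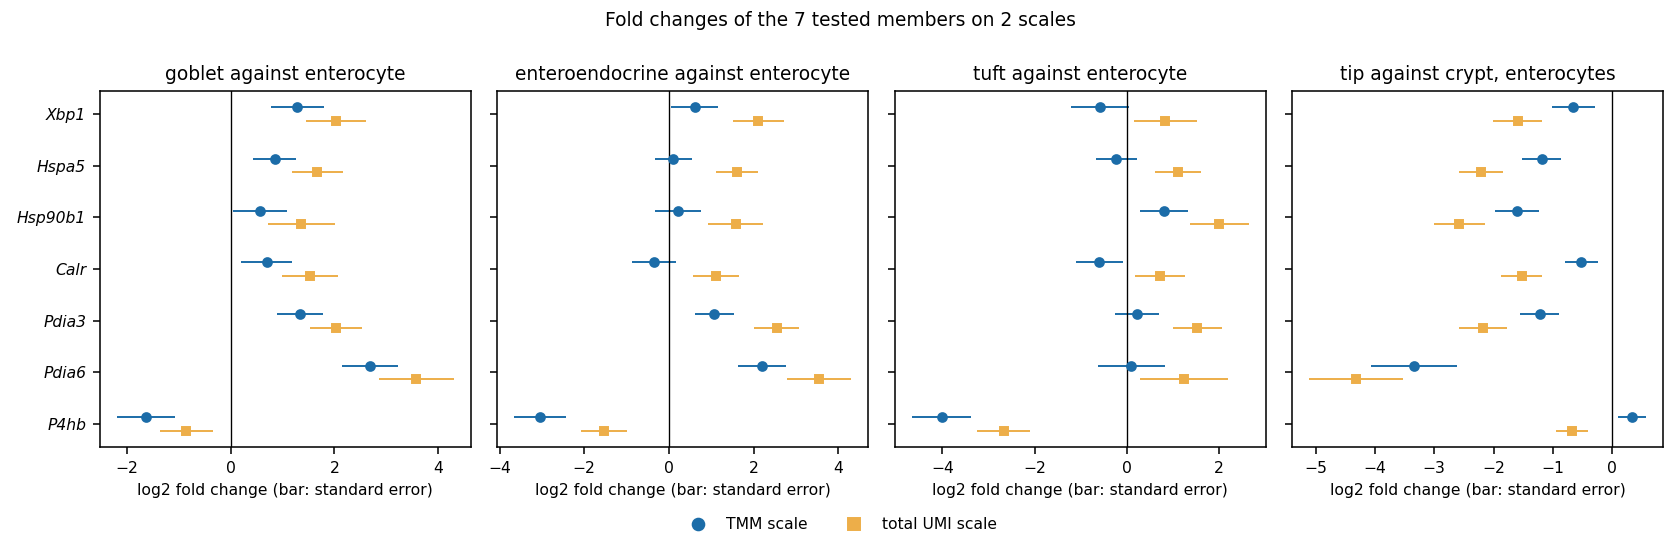
Log2 fold changes (x axis, bars are standard errors) of the 7 tested members (y axis) for 3 cell types against enterocytes and for villus tip against crypt in enterocytes, with TMM factors (circles) and per total UMIs (squares). The total UMI scale lies to the right of TMM in the 3 cell type panels and to the left in the axis panel, and P4hb at the tip changes side.

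Most enterocytes came from the villus (902 mid-villus and 1116 tip cells by their landmark genes, against 158 crypt cells). The fit was repeated against crypt enterocytes of mice 2 to 4 only, an alternative added after seeing the data in which 28.3% of all genes were called in goblet, 21.4% in enteroendocrine and 28.2% in tuft cells. Pdia6 and Pdia3 stayed higher in goblet cells (2.23 ± 0.59, adjusted p = 0.0039, and 1.56 ± 0.49, adjusted p = 0.0147). Xbp1 and Calr were then called as well (1.77 ± 0.54, adjusted p = 0.014, and 1.35 ± 0.49, adjusted p = 0.0375). The P4hb difference between goblet and crypt enterocyte cells was -0.32 ± 0.49 (adjusted p = 0.622). In enteroendocrine cells Pdia6 (1.84 ± 0.62, adjusted p = 0.0281) and Pdia3 (1.40 ± 0.51, adjusted p = 0.0448) were higher and P4hb lower (-1.61 ± 0.53, adjusted p = 0.0258). In tuft cells P4hb was again the only member called (-2.69 ± 0.55, adjusted p = 0.00025).

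Between goblet and enteroendocrine cells 0 of the 7 tested members were called (13.8% of all genes tested), and at an unadjusted p under 0.05 only P4hb was lower in enteroendocrine cells (log2 1.41 ± 0.60 for goblet over enteroendocrine, adjusted p = 0.124). With the mouse as a block Calr (adjusted p = 0.0415) and P4hb (0.017) were called higher in goblet cells, where 22.6% of all genes were called in either direction. The 95% intervals of the log2 difference ran from -0.45 to 1.80 for Xbp1, -0.13 to 1.62 for Hspa5 and -0.65 to 1.64 for Pdia6, so differences of these sizes are not resolved. Paneth cells were typed in numbers only in mice 2 and 3 (96 and 6 cells) and were not tested. They had 89.1 and 306 CPM of Xbp1 and 197 and 153 CPM of Hspa5, and their sums held 9182 and 84813 CPM of plasma cell RNA and, in mouse 2, 66315 CPM of red blood cell RNA, whose part was not tested.

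Of 83 further genes in 7 lists (listed with earlier results of these data known), 32 were tested between goblet cells and enterocytes, of which 11 rose and 0 fell, with a median log2 difference of 0.96 against -0.04 for all genes, of which 157 of 1636 were called higher and 290 lower. Agr2, the isomerase of mucins, had 3635 ± 1446 against 7.83 ± 5.01 CPM (log2 7.66 ± 0.86, adjusted p = 1.04e-07), Creb3l1, a stress-activated transcription factor, 144 ± 92.7 against 1.11 ± 1.05 CPM (log2 5.87 ± 0.69, adjusted p = 2.10e-07), and the isomerase Txndc5 263 ± 93 against 5.78 ± 3.54 CPM (log2 4.85 ± 0.55, adjusted p = 1.47e-07). Genes of translocation and signal peptide cleavage counted 4 higher of 11 tested, among them Sec11c (2.29 ± 0.50, adjusted p = 0.000772) and Ssr4 (2.09 ± 0.47, adjusted p = 0.00102), and glycosylation 3 of 7. In enteroendocrine cells 4 of the 32 rose and 0 fell (Creb3l1, Agr2, Txndc5 and Rpn1), and in tuft cells 3 rose (Sec11c, Erp29 and Rpn1) and 2 fell (Ostc and Kdelr1, neither called per total UMIs), where 233 and 180 of all 1636 genes were called higher and 446 and 345 lower. The counts that rose were close to the share of all genes called higher, and those that fell below the share called lower. Cytosolic and mitochondrial chaperones, listed for contrast, counted 0 higher and 1 lower of 8 in goblet cells and 2 higher of 8 in enteroendocrine cells, led by Hsp90ab1 (2.23 ± 0.40, adjusted p = 6.51e-05), and 2 higher of 8 in tuft cells, St13 (1.83 ± 0.63, adjusted p = 0.0264) and Hsp90aa1 (1.15 ± 0.44, adjusted p = 0.0452). Per total UMIs 20 of the 32 were higher in goblet cells, 20 in enteroendocrine and 9 in tuft cells, beside 252, 705 and 580 of all 1636 genes.

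Over the 16 sums of mouse and type, the genes whose log2 level followed Xbp1 most closely were Sec61b, Manf, Vapa, Ostc and Spcs2, at Pearson's r of 0.89 to 0.86, of which 4 are on the endoplasmic reticulum lists used here. Hspa5 was followed by Smim6, Rpn1, Gm12254, Rpl7-ps7 and Manf (0.90 to 0.84). Among the members, Hspa5 went with Pdia3 at 0.83 and with Xbp1 at 0.72, and P4hb with Hspa5 at -0.20. These are descriptions over sums that share mice and libraries and differ in depth.

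In clumps the question was whether a goblet or Paneth neighbour in the well moves these genes in the sum. Marker-free clumps held 0 UMIs of the Paneth and goblet lists, and marker clumps held 10 or more of 1 list and fewer than 10 of the other. Villus clumps are those of mid-villus and tip together. A marker-free clump is thereby a shallow one: the median was 1325 UMIs in marker-free, 6763 in Paneth-marker and 8467 in goblet-marker crypt clumps, and 1225 against 2733 in marker-free and goblet-marker villus clumps. In such sums, more cells of a type and more RNA per cell cannot be told apart.

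No member was called in any of the 5 clump comparisons, each with 7 members tested. The called share of all 3671 genes was 0.381% for Paneth-marker against marker-free crypt clumps, 0.545% for goblet-marker against marker-free crypt clumps, 0.953% for the same in the villus, 0.790% for Paneth-marker against goblet-marker crypt clumps and 0.0545% for the difference of the goblet effect between villus and crypt. At an unadjusted p under 0.05, Pdia6 and Calr were higher in crypt goblet-marker clumps and Pdia6 in villus goblet-marker clumps, and by DESeq2 no member passed the adjusted threshold in these comparisons either. Among clumps of 1000 to 5000 UMIs only, which narrows the gap in depth and leaves 4 of the 5 mice in crypt goblet-marker clumps, 0 members were called again.

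Ern2 had 49.2, 26.4, 13.6, 17.4 and 0 CPM in the crypt goblet-marker clumps of mice 1 to 5 and 0, 0, 0, 8.69 and 7.49 CPM in marker-free crypt clumps. Paneth-marker crypt clumps of mice 1, 3 and 4 had 0, 2.77 and 1.66 CPM, on 13 of 8346911 UMIs. In the villus, goblet-marker clumps had 0, 0, 35.5, 39.7 and 34 CPM, and marker-free clumps 0 in all 5 mice. Values of 0 occurred in goblet-marker clumps of the crypt in mouse 5 and of the villus in mice 1 and 2, so the groups overlapped. Without the filter on counts, Ern2 was called higher in goblet-marker villus clumps (adjusted p = 0.00171) and lower in Paneth-marker than in goblet-marker crypt clumps (log2 -3.31 ± 0.83, adjusted p = 0.0287), where 0.263% and 0.254% of all genes were called, but not in goblet-marker against marker-free crypt clumps (log2 3.14 ± 0.95, adjusted p = 0.207).

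**Figure D3:**
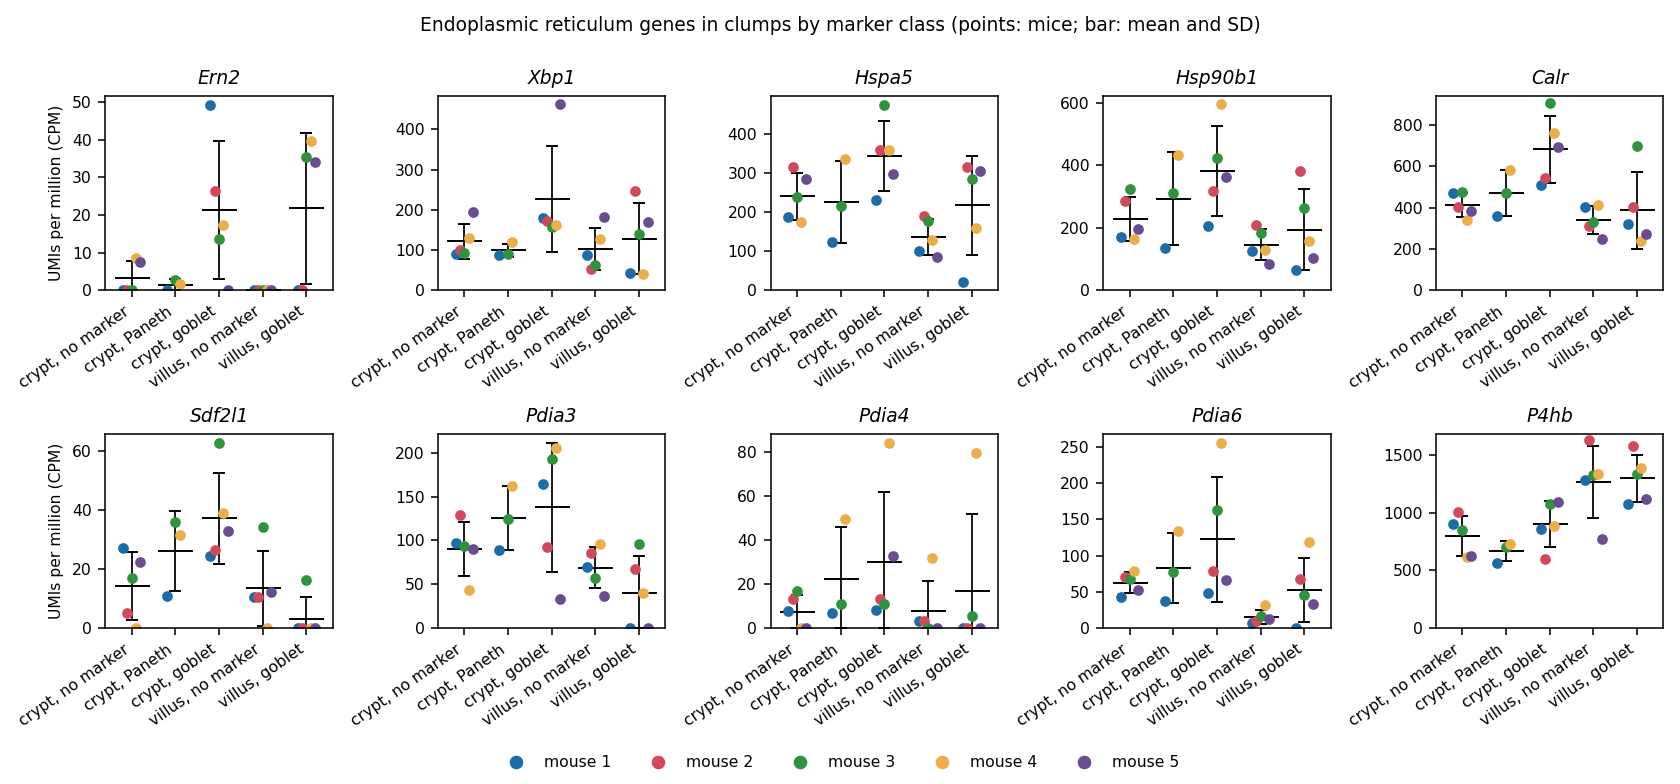
CPM (y axis, from 0) of each member in 5 classes of clumps (x axis: crypt clumps without markers, with Paneth and with goblet markers, villus clumps without markers and with goblet markers), 1 point per mouse, with the mean and SD as a bar that stops at 0. Ern2 is above 10 CPM only in goblet-marker clumps, and P4hb is higher in villus than in crypt clumps of the same marker class in every mouse. Pdia4 is highest in mouse 4 in Paneth-marker crypt clumps and both villus classes, and at 0 in mouse 4 in marker-free crypt clumps.

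Pdia6 had 49.2, 79.3, 163, 255 and 66 CPM in crypt goblet-marker clumps and 42.8, 71, 67.9, 78.2 and 52.4 CPM in marker-free ones of mice 1 to 5. Mice 3 and 4 were high and mice 1, 2 and 5 within the marker-free range or close to it. The log2 difference was 1.11 ± 0.44 (unadjusted p = 0.0174, adjusted p = 0.774). In the villus the values were 0, 67.4, 46.4, 119 and 34 and 6.94, 9.63, 17.1, 31.8 and 12.1 CPM, with 1.90 ± 0.69 (unadjusted p = 0.00937, adjusted p = 0.453). Calr had 508, 542, 906, 763 and 693 CPM in crypt goblet-marker clumps, all above the 339 to 475 CPM of marker-free ones, with 0.62 ± 0.27 (adjusted p = 0.833).

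Paneth-marker crypt clumps overlapped with marker-free ones. Hspa5 had 125, 216 and 335 CPM in mice 1, 3 and 4, around the 174 to 315 CPM of marker-free clumps, and the 95% interval of the log2 difference was -0.81 to 0.77. For Xbp1 the values were 88, 91.3 and 119 CPM and the interval -1.16 to 0.69. The 3 Paneth mice kept their order in Hspa5, Hsp90b1, Calr, Pdia3, Pdia4 and Pdia6, with mouse 1 lowest and mouse 4 highest. Xbp1 in goblet-marker crypt clumps was 180.2, 172, 158, 163 and 462 CPM, above all 3 Paneth mice, at an unadjusted p of 0.0894 (adjusted p = 1.000).

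Pdia4 was decided by 1 mouse in all crypt clumps. There it had 6.22, 10.3, 9.13, 60.5 and 8.13 CPM in mice 1 to 5, so that mouse 4 stood far above the others. In marker-free crypt clumps mouse 4 had 0 UMIs of Pdia4. Within mouse 4, its larger clumps had 61.7 CPM on 1148 UMIs and its pairs a single UMI in 399741. Mouse 4 was also highest in crypt Hsp90b1 (155, 251, 304, 479.6 and 209 CPM) and Pdia6 (47.9, 54.8, 83.8, 171 and 75.9 CPM) and in the list of stem and dividing cells (1011 CPM against 393 to 541 CPM in the other mice). The part of that list in these values was not tested. Against marker-free clumps, the other genes of the lists gave 3 calls in goblet-marker clumps of either zone, the same 3 (Creb3l1, Agr2 and Txndc5), and 0 in Paneth-marker clumps, of 47 tested. Against goblet-marker crypt clumps, 3 of the 47 were lower in Paneth-marker clumps and 0 higher.

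Along the crypt to villus axis, Hspa5 was lower at the tip in marker-free clumps, all clumps and enterocyte cells, Hsp90b1, Pdia3 and Pdia6 in all clumps and enterocyte cells, and Calr in both clump comparisons. In all clumps, 8 members were tested between villus tip and crypt: 5 were lower (30.3% of all genes tested were lower) and 0 higher (22.3%). In marker-free clumps 2 of 6 tested were lower (36.0%) and 0 higher (28.5%), and in enterocyte single cells 4 of 7 were lower (27.9%) and 0 higher (28.7%). In CPM, every tip mouse lay below every crypt mouse in enterocyte cells for 8 of the 10 members (41.2% of genes tested), in marker-free clumps for 3 (33.5%) and in all clumps for 3 (21.6%). Per total UMIs all 7 tested in enterocyte cells were called lower, where 48.7% of all genes were called in either direction. Zones were set by enterocyte landmark genes that hold no endoplasmic reticulum gene, and the share of genes called is large in all 3 comparisons, so a call by itself is common here. The list of stem and dividing cells had 393 to 1011 CPM in all crypt clumps against 47.8 to 198 CPM at the tip, and 96.4 to 180 against 14.3 to 52.7 CPM in enterocyte cells, and its part in these differences was not tested. In all clumps the Paneth list had 29998, 14718, 12930 and 5517 CPM in the crypt of mice 1, 3, 4 and 5. At the tip these mice had 912, 1175, 1562 and 152 CPM, while mouse 2 had 86.8 CPM in the crypt and 110 at the tip. Larger clumps made up 1780 of the 2098 crypt clumps of mouse 4. The part of Paneth cells and of clump size was not tested.

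Hspa5 had 187, 315, 238, 174 and 284 CPM in crypt marker-free clumps of mice 1 to 5. At mid-villus it had 92.9, 248, 229, 136 and 97.1 CPM and at the tip 119, 81.8, 99.5 and 58 CPM in mice 1, 2, 3 and 5 (mouse 4 had too few tip clumps). Every tip value was below every crypt value. Enterocyte single cells had 372, 333 and 209.8 CPM in the crypt (mice 2 to 4) and 62.1, 59.6, 81.7 and 59 CPM at the tip (mice 1 to 4). The log2 differences were -1.09 ± 0.37 (standard error), adjusted p = 0.0125, in marker-free clumps, -1.39 ± 0.34 (standard error), adjusted p = 0.00128, in all clumps, and -1.19 ± 0.33 (standard error), adjusted p = 0.0045, in cells. In marker-free clumps the call was lost without mouse 2 (adjusted p = 0.0791), mouse 3 (0.0741) or mouse 5 (0.0573). It was also lost in pairs alone (0.0678), without the filter on counts (0.0533) and with zones set by the highest mean of landmark genes (0.0694), but not in clumps of 1000 to 5000 UMIs (0.0228). The call was lost in cells without mouse 2 (0.107), and in all clumps under no left-out mouse.

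Pdia6 showed the steepest fall of the members tested. In marker-free clumps it went from 42.8, 71, 67.9, 78.2 and 52.4 CPM in the crypt to 4.89, 11.6, 19.1, 34.1 and 17.6 at mid-villus and 11.9, 6.06, 14.2 and 0 at the tip. In enterocyte cells it went from 48, 31.5 and 28.4 CPM to 0.549, 2.13, 0 and 3.69 CPM, the latter on 5 UMIs in all. Crypt and tip did not overlap in either. The log2 difference was -2.36 ± 0.60 (standard error), adjusted p = 0.00242, in all clumps and -3.34 ± 0.72 (standard error), adjusted p = 0.000622, in cells, and it was called in all clumps and in cells without each mouse in turn. In marker-free clumps it was tested only without the filter on counts (-2.63 ± 0.78, adjusted p = 0.00847). Pdia6 stood on the study's list of crypt landmark genes of goblet cells, which was not used for zones here.

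Hsp90b1 fell from 300.2, 385 and 176 CPM in crypt enterocytes to 36.8, 51.1, 63.3 and 45.5 CPM at the tip, with no overlap (-1.61 ± 0.36 (standard error), adjusted p = 0.000939). In marker-free clumps the crypt had 171, 284, 323, 165 and 195 CPM and the tip 47.7, 118, 156 and 77.3 CPM, also apart, with -0.79 ± 0.36 (adjusted p = 0.0596, and 0.00806 with the mouse as a block). In all clumps the difference was -0.89 ± 0.36 (standard error), adjusted p = 0.0416, and leaving out any 1 mouse ended that call (adjusted p = 0.0756, 0.0689, 0.0891, 0.058 and 0.141), as did zones set by the highest mean of landmark genes (0.0753).

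Pdia3 had 84.1, 144 and 108 CPM in crypt enterocytes and 17.6, 23.4, 23.7 and 38.1 CPM at the tip, with no overlap. The log2 difference was -1.22 ± 0.33 (standard error), adjusted p = 0.00389, in cells, and -1.19 ± 0.35 (standard error), adjusted p = 0.00621, in all clumps. The call in cells was lost without mouse 3 (adjusted p = 0.11) and without the filter on counts (0.0747). In marker-free clumps, where 1 crypt value lay within the tip range, it was -0.99 ± 0.43 (adjusted p = 0.0507, and 0.0217 with the block).

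Calr was lower at the tip in clumps and overlapped there between crypt and mid-villus. In marker-free clumps the levels were 471, 405, 475, 339 and 382 CPM in the crypt, 425, 392, 438, 444 and 344 CPM at mid-villus and 346, 169.7, 171 and 38.6 CPM at the tip, where mouse 1 stayed within the crypt range. The tip differed from the crypt by -0.85 ± 0.33 (standard error), adjusted p = 0.0266, in marker-free and by -0.73 ± 0.29 (standard error), adjusted p = 0.0334, in all clumps. Without mouse 2, mouse 3 or mouse 5 the first call was lost (adjusted p = 0.0927, 0.197 and 0.123), and the second without mouse 2, 4 or 5 (0.0788, 0.115 and 0.19). Pairs alone ended both calls (0.233 and 0.074), and the first was also lost in clumps of 1000 to 5000 UMIs (0.186) and without the filter on counts (0.106). In enterocyte cells, at 228, 298 and 289 CPM in the crypt, 113, 223, 225 and 193 CPM at mid-villus and 87.9, 121, 81.7 and 89.7 CPM at the tip, the crypt values lay above all others, and the tip difference was -0.52 ± 0.27 on TMM (adjusted p = 0.112, and 0.0306 with the block) and -1.53 per total UMIs (adjusted p = 0.000922).

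**Figure D4:**
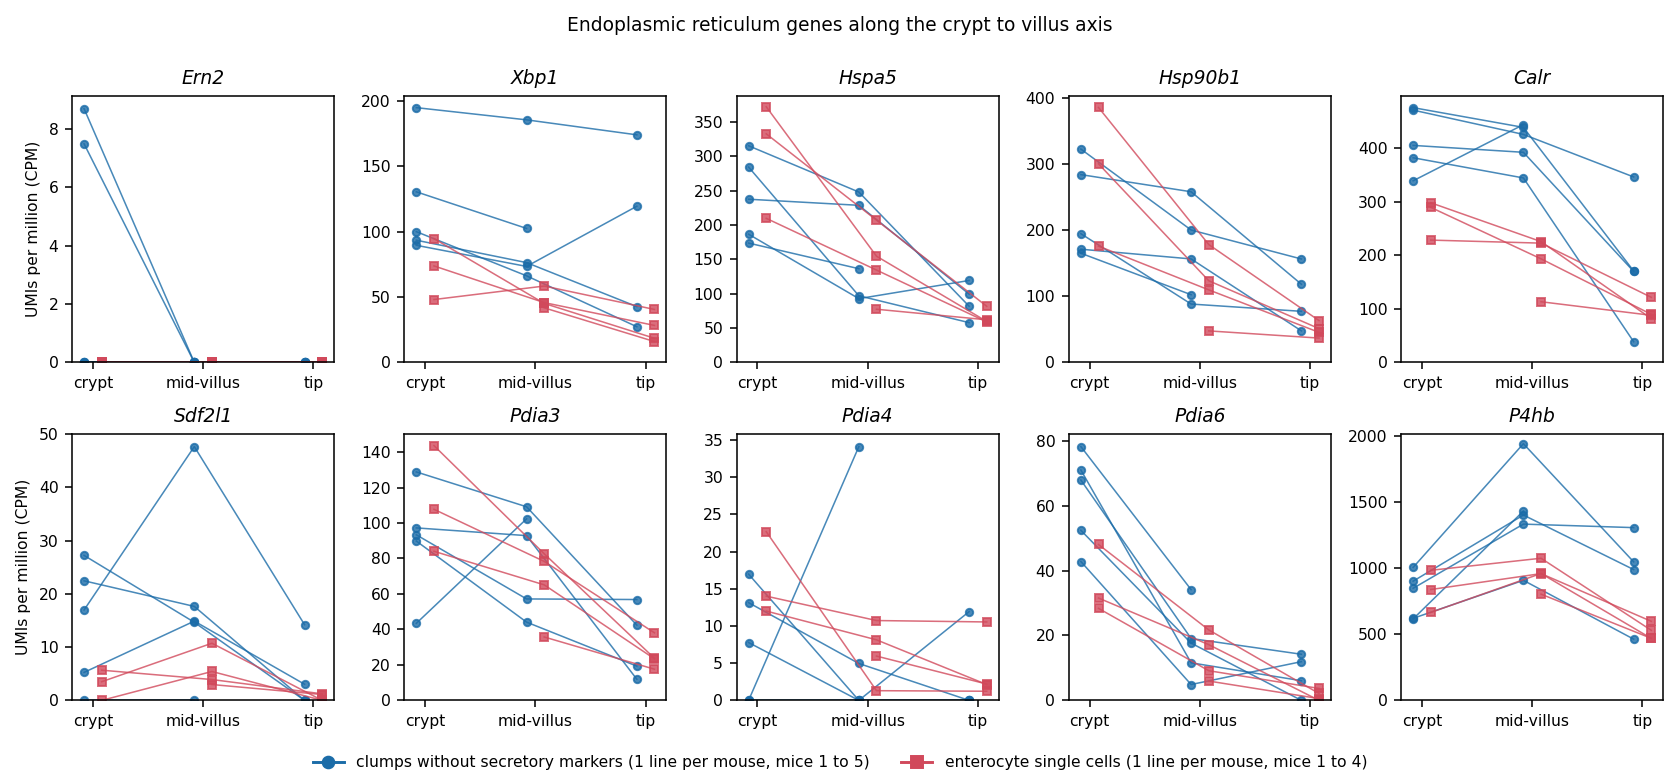
CPM (y axis, from 0) of each member in crypt, mid-villus and villus tip (x axis), 1 line per mouse, in clumps without secretory markers (circles) and in enterocyte single cells (squares). Hspa5, Hsp90b1, Pdia3 and Pdia6 have a tip value below the crypt value in each mouse with both zones, and P4hb is highest at mid-villus in every mouse.

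Xbp1, in contrast, was not called on TMM. Marker-free clumps had 89.5, 99.9, 93.4, 130.3 and 195 CPM in the crypt and 119, 27.3, 42.6 and 174 CPM at the tip, which overlap, with -0.33 ± 0.61 (adjusted p = 0.653). In enterocyte cells the crypt had 48, 94.6 and 73.7 CPM and the tip 15.9, 40.5, 18.5 and 28.3 CPM, apart from each other, with -0.66 ± 0.36 on TMM (adjusted p = 0.129) and -1.59 per total UMIs (adjusted p = 0.00333). Sdf2l1 passed the filter in all clumps only, with 14.3, 5.71, 29.3, 33.8 and 21.7 CPM in the crypt and 4.98, 5.01, 12.3, 12.4 and 0 CPM at the tip, and missed the threshold (-1.05 ± 0.53 (standard error), adjusted p = 0.0957), which it passed in DESeq2 (adjusted p = 0.0392). In all clumps Xbp1 was -0.60 ± 0.41 (adjusted p = 0.22), and called lower in pairs alone (adjusted p = 0.00987). Pdia4 and Ern2 were not tested, and Ern2 had 0 UMIs in the tip and mid-villus marker-free clumps of every mouse.

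P4hb was higher at mid-villus than in the crypt in every mouse measured in both, and lower again at the tip. In marker-free clumps it had 902, 1007, 849, 617 and 621 CPM in the crypt, 1403, 1943, 1334, 1433 and 909 CPM at mid-villus and 990.3, 1049, 1308 and 464 CPM at the tip, where mouse 4 is absent. Enterocyte cells had 985, 666 and 839 CPM in the crypt of mice 2 to 4, 804, 1076, 961 and 959.7 CPM at mid-villus and 469.8, 530.4, 469 and 599 CPM at the tip of mice 1 to 4. The step to mid-villus was not tested. For the tip against the crypt the log2 difference on TMM was 0.57 ± 0.26 in marker-free clumps (adjusted p = 0.0619), 0.63 ± 0.28 in all clumps (0.0595) and 0.34 ± 0.24 in cells (0.245), and with the mouse as a block the first 2 were called higher (adjusted p = 0.0041 and 0.00662). In cells the direction depended on the scale: every tip value in CPM lay below every crypt value, and per total UMIs P4hb was called lower (-0.68, adjusted p = 0.0461), where the median of all 3787 genes sat at 0.17 on TMM and at -0.81 per total UMIs.

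In enterocyte cells the plasma cell list had 0 CPM in the crypt and 4.26 CPM at the tip of mouse 2, 4923 and 1605 CPM in mouse 3 and 834 and 592 CPM in mouse 4. Without the wells that held any such UMI, 61 of the 158 crypt cells were left. Hsp90b1 was then still called (-1.49 ± 0.45, adjusted p = 0.00694), Hspa5 (-0.92 ± 0.42, adjusted p = 0.0636) and Pdia3 (-0.76 ± 0.53, adjusted p = 0.233) were not, and Pdia6 no longer passed the filter. Marker-free crypt clumps held 772 CPM of the list in mouse 3 and 94.6 CPM in mouse 2, against 28.4 and 3.03 CPM at the tip, and without those wells Hspa5 and Calr were still called (adjusted p = 0.0131 and 0.0249). In all clumps, where the list reached 301 CPM in the crypt and 20.8 CPM at the tip, Hspa5, Pdia3, Pdia6 and Calr were called without those wells too. Hsp90b1 was not (adjusted p = 0.0528), and P4hb was called higher at the tip (adjusted p = 0.0327).

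The goblet cells themselves were split at each mouse's median of their crypt to tip score, taken from goblet landmark genes that hold no endoplasmic reticulum gene. Of the 6 members tested 0 were called (0% of 236 genes tested, with 31 genes at an unadjusted p under 0.05 in edgeR and 32 in DESeq2). Hsp90b1 had 260.1, 214, 411 and 649 CPM in the crypt-ward cells and 130.4, 168, 152 and 145 CPM in the tip-ward cells of mice 1 to 4, with no overlap, and a log2 difference of -1.46 ± 0.45 (unadjusted p = 0.00700, adjusted p = 0.228). The list of stem and dividing cells had 60, 93.8, 274 and 433 CPM in the crypt-ward and 21.7, 67.3, 12.7 and 0 CPM in the tip-ward cells, and the goblet markers 43733, 52257, 29042 and 13274 against 39405, 53544, 58468 and 32478 CPM, and their part was not tested. Pdia6, which did not pass the filter, had 60, 80.4, 260.4 and 649 CPM and 21.7, 33.7, 0 and 0 CPM, on 37 and 3 UMIs. Ern2 had 20, 93.8, 68.5 and 0 CPM and 0, 84.2, 88.7 and 0 CPM, and Xbp1 had an interval of -1.12 to 1.25 for the log2 difference.

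The other endoplasmic reticulum genes are given by function. In all clumps 68 of the 83 were tested, of which 23 fell and 10 rose towards the tip, the former near the 30.3% of all genes called lower and the latter below the 22.3% called higher. In enterocyte cells 20 of 48 fell and 5 rose (27.9% and 28.7% of all genes), and in marker-free clumps 11 of 23 fell and 2 rose (36.0% and 28.5%). In all clumps translocation and signal peptide cleavage counted 10 lower and 0 higher of 17, with Sec61b, a subunit of the translocation channel, at 49 ± 7.79 against 239 ± 53.4 CPM (log2 -1.94 ± 0.26, adjusted p = 1.86e-06). Glycosylation counted 7 lower and 0 higher of 9, among them Krtcap2 (-2.57 ± 0.46, adjusted p = 6.27e-05) and Stt3b (-1.81 ± 0.34, adjusted p = 0.000107). The chaperone list was mixed, with 4 lower, such as Canx, the membrane partner of calreticulin (-1.75 ± 0.31, adjusted p = 4.44e-05) and Manf (-1.98 ± 0.45, adjusted p = 0.000853), and 2 higher of 11. The median log2 difference was -1.20 for translocation, -1.25 for glycosylation and -0.15 for all genes tested.

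The list of stress sensors and their factors went the other way in the genes called on TMM. Of 9 tested, 5 rose and 0 fell, with a median of 1.08: Trib3, a target of the response to lasting stress (4.03 ± 0.62, adjusted p = 9.05e-06), Creb3l2, a stress-activated transcription factor, at 107 ± 40.3 against 14.6 ± 4.93 CPM (3.35 ± 0.37, adjusted p = 1.30e-07), Ddit3, the factor CHOP (2.47 ± 0.48, adjusted p = 0.000149), and Ppp1r15b, a phosphatase subunit that restores translation, at 151 ± 28.7 against 59.8 ± 8.81 CPM (1.63 ± 0.25, adjusted p = 1.00e-05). Genes of degradation counted 3 higher and 0 lower of 12, near the 22.3% of all genes called higher, namely Os9 (1.19 ± 0.29, adjusted p = 0.00136), Edem1 (1.07 ± 0.33, adjusted p = 0.0087) and Sel1l (1.06 ± 0.31, adjusted p = 0.00598). Creb3l2 and Ppp1r15b were also higher at the tip in enterocyte cells (5.00 ± 0.64, adjusted p = 2.23e-06, and 2.25 ± 0.40, adjusted p = 8.16e-05). There the degradation list counted 1 higher and 1 lower of 9, the latter being Edem2 (-1.76 ± 0.54, adjusted p = 0.00911). Per total UMIs the list of stress sensors and their factors counted 4 higher and 1 lower in all clumps and 2 higher and 1 lower in enterocyte cells. Degradation counted 1 higher and 0 lower in all clumps and 0 higher and 1 lower in cells. Xbp1, a member and not on these lists, had negative differences at the tip, called lower in pairs alone and, in cells, per total UMIs, as given above.

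**Figure D5:**
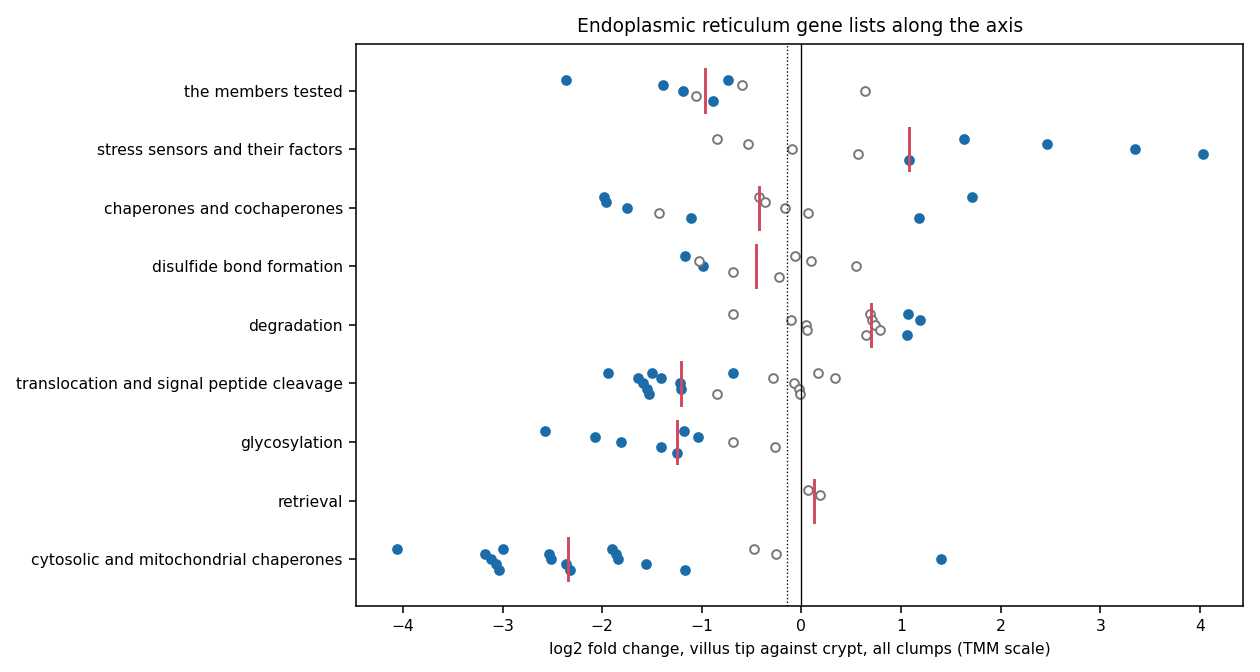
Log2 fold change of villus tip against crypt in all clumps on TMM (x axis) for the members tested and for each list of endoplasmic reticulum and other chaperone genes (y axis), 1 point per gene, filled where the adjusted p is under 0.05. Red lines mark the median of a list and the dotted line the median of all genes tested (-0.15). Translocation and glycosylation lie to the left, the list of stress sensors and their factors to the right, and the cytosolic and mitochondrial chaperones farthest to the left.

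A fall towards the tip was not particular to the endoplasmic reticulum. Cytosolic and mitochondrial chaperones counted 15 lower and 1 higher of 18 in all clumps, with a median of -2.34, and 9 lower and 1 higher of 15 in enterocyte cells. Hspd1, the mitochondrial Hsp60, had 11.6 ± 14.9 against 179 ± 92.6 CPM (log2 -4.06 ± 0.56, adjusted p = 2.51e-06), and Tcp1, of the cytosolic chaperonin, 21.9 ± 22.8 against 177 ± 44.1 CPM (-3.17 ± 0.41, adjusted p = 8.12e-07).

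Over the 23 sums of mouse and clump class, Hspa5 was followed most closely by Sec11c, Hsp90b1, Pdia6, Timm13 and Atp2a2 (Pearson's r of 0.87 to 0.75), so 2 of the 5 nearest genes were members. Ern2 was followed by Klk1b3, Selm, Agr2, Rab27a and Muc3a (0.78 to 0.68), and Xbp1 by Gm9755, Tex264, Ppif, Ccdc171 and Fbxo8 (0.73 to 0.66). Sdf2l1 was followed by Dhx15, Snrpb2, Adh5, Cdc123 and Gm8520 (0.84 to 0.76). P4hb had an r of -0.08 with Hspa5 and of -0.21 with Xbp1. The sums share mice and libraries and differ in depth, and these values are descriptions.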

How the data were processed

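Per the labels and the study's methods, jejunal crypts and villi were dissociated with EDTA, sorted into plates and sequenced by MARS-seq. The authors deposited raw UMI counts per gene and well, 1 table for cells and 1 for clumps, made with bcl2fastq 2.15.0.4, zUMIs and STAR on GRCm38 and not normalized. The well barcodes (384) repeat on every plate by design, the plates include empty wells that were not subtracted, no doublet caller was run, and no fold or p-value of the authors was used. Every plate was matched to its label, and no column belonged to another sample.

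The filter on cell wells was 200 to 7000 UMIs, 150 to 1500 genes and a mitochondrial share up to 40%, and on clumps more than 500 UMIs, 200 or more genes and a mitochondrial share up to 30%, after which the 2% poorest in landmark UMIs were dropped. Each well took the zone whose set of enterocyte landmark genes (crypt, mid-villus or tip), scaled to their maxima, its profile correlated with best, and goblet cells with 5 or more goblet landmark UMIs were split at the median of each mouse. Wells were assigned to types, marker classes and zones by lists with every endoplasmic reticulum gene removed. Wells of a mouse and group were summed where there were 5 or more, so the mouse was the replicate. Cell mice 1 to 4 and clump mice 1 to 5 are numbered separately, and mouse 6 (clumps gated above 2n) entered only as an alternative. Sums were tested with edgeR 4.0.16 (R 4.3.3; filterByExpr, TMM, robust quasi-likelihood test), with Benjamini-Hochberg adjustment at 0.05 over all tested genes that did not choose the wells, and DESeq2 1.42.0 as an alternative. The p-values measure the spread between mice. The fits were checked on simulated counts with known changes, except that of the split goblet cells. The simulated counts had a common dispersion, as many rises as falls and no mouse effect. The check therefore does not cover sums that share a mouse or the choice of scale. Limits at 0 UMIs are 3 counts and cover counting error only.

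Equal mouse numbers within a table were taken as 1 animal, although cell mouse 2 carries plates of 3 and of 4 months and may hold more than 1. The deviations of same-mouse sums correlated at a median of 0.193 in cell types, 0.243 in clump classes and 0.229 to 0.417 along the axis, so the mouse also entered as a block. Named genes are the 10 members in every comparison, up to 4 called genes of each other list a comparison at 20 CPM or more in either group with the largest fold, and, for Ern2, Xbp1, Hspa5 and Sdf2l1, the 5 tested genes with the highest correlation of log2(CPM + 5). The members, lists and tests were chosen with earlier results of these data known. Promoters came from RefSeq.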

Additional observations from a re-analysis of the deposited data

Results flagged for a closer look

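Each member was screened in every group of 4 or 5 mice for a mouse far from the others by Dixon's 95% limit. Of 162 groups, 22 held such a mouse. The limit gives about 1 in 20 groups for independent normal values. Here groups share wells, and a group with UMIs in only 1 mouse is always flagged. The number flagged can therefore not be set against that rate. These are values without an explanation.

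Pdia4 in clump mouse 4 made up a large share of them, with 60.5 CPM in all crypt clumps, 40.5 at mid-villus and 24.8 at the tip, 31.8 in marker-free villus clumps, 79.3 in goblet-marker villus clumps and 34.1 in marker-free mid-villus clumps. Of these, the crypt value rests on 1149 UMIs and the mid-villus value of all clumps on 18, and the other 4 on 1 or 2 UMIs each, with the marker-free mid-villus and villus values on the same UMI. Pdia4 was also apart in marker-free tip clumps of mouse 1 (11.9 CPM), in tip enterocytes of cell mouse 3 (10.5 CPM) and in tip-ward goblet cells of mouse 2 (16.8 CPM), on 1, 4 and 1 UMIs.

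Xbp1 was apart in goblet cells of mouse 3 (234 CPM), in crypt goblet-marker clumps of mouse 5 (462 CPM, on 5 wells) and in all crypt clumps of mouse 5 (230.3 CPM). Ern2 was apart in all crypt clumps of mouse 4 (6.95 CPM) and all tip clumps of mouse 3 (8.58 CPM). Hspa5 was apart in tip enterocytes of cell mouse 3 (81.7 CPM), P4hb in all tip clumps of mouse 5 (506 CPM) and Pdia3 in tuft cells of mouse 3 (282 CPM). Sdf2l1, which rests on a few UMIs in each sum, was apart in goblet cells of mouse 3 (19.5 CPM), enteroendocrine cells of mouse 2 (5.44 CPM), tuft cells of mouse 2 (16.7 CPM), goblet-marker villus clumps of mouse 3 (16.4 CPM) and crypt-ward goblet cells of mouse 3 (41.1 CPM).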

How the results depend on the processing

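Per total UMIs in place of TMM, the number of members called went from 3 to 5 in goblet cells, from 2 to 6 in enteroendocrine cells and from 1 to 3 in tuft cells against enterocytes, from 2 to 4 along the axis in marker-free clumps and from 4 to 7 in enterocyte cells, where P4hb, not called on TMM (0.34), was called lower at the tip (-0.68 on the log2 scale) as the median of all genes moved from 0.17 to -0.81. Leaving Gm42418 and mitochondrial genes out of those totals gave 5 in enteroendocrine and 2 in tuft cells, and 4 in marker-free clumps. With DESeq2 size factors marker-free clumps had 4. With the mouse as a replicate block there were 2 between goblet and enteroendocrine cells (0 without) and 5 in marker-free clumps, and beyond the calls given above it changed none. Without the filter on counts there was 1 each between goblet and enteroendocrine cells, in goblet-marker villus clumps and in Paneth-marker against goblet-marker clumps (Ern2 in all 3, each 0 with the filter), and 1 in marker-free clumps (Pdia6). Tuft cells had 2 with 20 marker UMIs and 2 without wells with plasma cell UMIs, which left 1 in enterocyte cells along the axis. Marker-free clumps of 1000 to 5000 UMIs had 1 (Hspa5), and pairs alone 0. The cause of these shifts was not tested, beyond the changed scale, filter or number of wells.

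With each mouse left out in turn, members called ranged from 0 to 3 in goblet, 1 to 2 in enteroendocrine and stayed at 1 in tuft cells, from 0 to 4 in marker-free clumps, from 3 to 4 in all clumps (5 with all mice) and from 3 to 4 in enterocyte cells. They stayed at 0 in goblet against enteroendocrine cells, the 5 clump class comparisons and tip-ward against crypt-ward goblet cells. Over all genes, goblet cells against enterocytes ranged from 133 to 552 calls (447 with all mice) and the axis in all clumps from 2456 to 4024 (3881). Depth limits Ern2, Sdf2l1 and Pdia4, which did not pass the filter in cell types.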

Other observations

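Lymphocytes, which reached the plates of cell mice 2 to 4 in numbers, were not part of the epithelial comparisons. They had 292, 299 and 301 CPM of Hspa5, 368, 295 and 207 CPM of Hsp90b1 and 420.3, 271 and 316 CPM of Calr. Their Xbp1 was 63.5, 60.1 and 79 CPM and their P4hb 116, 155 and 202 CPM. Their sums held 1293 to 3487 CPM of plasma cell RNA, a cell type known for its endoplasmic reticulum, and its part in these values was not tested.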
